A study of Mus musculus with 20 samples.

Results

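NF-κB is a family of dimeric transcription factors, and the genes described here encode its subunits and the feedback regulators that hold it in check. They are Rela, Rel, Relb, Nfkb1 and Nfkb2 (subunits), Nfkbia and Nfkbie (classical inhibitors), Nfkbiz and Bcl3 (nuclear members of the inhibitor family) and Tnfaip3, which encodes the ubiquitin-editing enzyme A20. These 10 genes were listed by name, and the list was selected on 1 measured value, the late difference of Nfkbiz between floxed and wild-type immortalized cells, so the values of these genes in that contrast are given as a description, with no test. Each gene was read from its probe set with 1 gene symbol and the highest mean over all arrays. Of the 10, 9 had such a probe set (1 each), out of 19938 genes with one, and all 9 lay over the 40th percentile of the array on each of the 20 arrays. They therefore all belong to the 15272 genes tested. Nfkb1, which encodes the p105 precursor of p50, was not analysed here.

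The study asked what loss of UBF, an activator of ribosomal RNA transcription, does to mouse embryonic fibroblasts (MEFs). Expression was read by Affymetrix arrays that probe whole transcripts, in 4 lines: immortalized MEFs (iMEFs) with Ubf fl/fl or Ubf wt/wt, and primary MEFs with Ubf fl/fl or Ubf wt/wt. The lines came from E14.5 embryos, and all carry Er-cre+/+, a recombinase switched on by 4-hydroxytamoxifen (4-HT). All of them, the wt/wt controls included, received 50 nM 4-HT for 4 h and were harvested at 0, 24, 48, 72 and 96 h post 4-HT (pHT). The iMEFs were immortalized with SV40 T antigens, which bind and block p53 and the retinoblastoma proteins. There was 1 array for each line and time and no replicate, and each genotype and cell type is a single line. A genotype difference and a difference between lines therefore cannot be told apart. Reading the change with time removes a constant gap between lines, but not a course over time that is particular to 1 line. In tests over time, p-values measure how the fl/fl minus wt/wt difference varies among 0 and 24 h or among 48, 72 and 96 h. Scatter of the mean of both genotypes between these times does not enter them. Between cell types, p-values measure the spread between the lines of a cell type.

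In resting cells the classical inhibitors bind NF-κB dimers and keep them in the cytoplasm. Signals from tumour necrosis factor, interleukin-1 or Toll-like receptors activate the IKK kinase complex, which marks the inhibitors for destruction and frees Rela dimers to enter the nucleus. A second, slower route processes the Nfkb2 product p100 to p52, the partner of Relb. The freed dimers switch on their own inhibitors, which ends the response, and in fibroblasts they also switch on chemokines, adhesion molecules and acute-phase proteins. The nuclear inhibitor IκBζ, encoded by Nfkbiz, works mostly as a co-activator that a subset of these late targets needs, Lcn2 among them.

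Because feedback regulators are themselves NF-κB targets, binding sites in their promoters are shown first. RefSeq promoter windows (build GRCm38.p6), which run from 250 bases before to 50 bases after a start site, were given for 7 of the 10 genes and searched on both strands for the NF-κB consensus. Of the 10 windows of these genes, 8 held a match, and 6 of the 7 genes had at least 1. Of all 32851 RefSeq windows 2779 (8.46%) held one, as did 2581 of 27025 genes (9.55%). For each of the 6 genes the match whose first base lies nearest to a start site is printed on the strand of the gene, with the match in capitals and 10 bases on each side. A run of 11 capitals holds overlapping matches.
Nfkbia, chr12:55492657-55492686 (minus strand): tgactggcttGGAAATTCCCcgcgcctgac
Nfkbie, chr17:45555584-45555613 (plus strand): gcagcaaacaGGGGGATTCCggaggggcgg
Bcl3, chr7:19822734-19822763 (minus strand): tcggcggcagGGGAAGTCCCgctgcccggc
Tnfaip3, chr10:19015403-19015432 (minus strand): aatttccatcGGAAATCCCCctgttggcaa
Rel, chr11:23771041-23771071 (minus strand): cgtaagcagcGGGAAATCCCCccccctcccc
Nfkb2, chr19:46305695-46305724 (plus strand): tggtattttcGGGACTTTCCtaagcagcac
A match is a string of letters and not evidence of binding. The Nfkb2 string lies in 2 overlapping windows, and the Rela window held none of these letters (0 matches).

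Nfkbiz was higher at 72 and 96 h in the fl/fl iMEFs than on any array of the other lines. Its log2 levels at 0, 24, 48, 72 and 96 h pHT were 8.31, 7.88, 8.87, 9.19 and 9.59 in fl/fl iMEFs, against 8.88, 8.83, 8.53, 8.64 and 8.82 in wt/wt iMEFs. In primary cells they were 8.16, 8.62, 8.83, 8.92 and 8.94 in fl/fl MEFs, against 8.36, 8.62, 8.87, 8.76 and 8.65 in wt/wt MEFs. In fl/fl iMEFs the level at 96 h was 2.42 times that at 0 h, and the same ratio was 0.960 in wt/wt iMEFs, 1.72 in fl/fl MEFs and 1.22 in wt/wt MEFs. The fl/fl iMEFs also started lowest: the mean at 0 and 24 h was 8.09, against 8.85 in wt/wt iMEFs, and the 2 primary lines lay between at 8.39 (fl/fl) and 8.49 (wt/wt). The mean at 48 to 96 h was 9.21 in fl/fl iMEFs and 8.66 in wt/wt iMEFs, and 8.90 in fl/fl MEFs and 8.76 in wt/wt MEFs. The order of the late means was thus fl/fl iMEFs, fl/fl MEFs, wt/wt MEFs and wt/wt iMEFs, and neighbours in this order overlapped in their late arrays. In fl/fl MEFs, wt/wt MEFs and fl/fl iMEFs every late array lay above every early one, whereas in wt/wt iMEFs every late array lay below every early one.

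The classical inhibitors were highest at 48 h, not at 96 h, in fl/fl iMEFs. Nfkbia, which encodes IκBα, the inhibitor best known to restore the resting state, read 9.94, 10.03, 10.69, 10.39 and 10.12 in fl/fl iMEFs, against 9.92, 9.75, 10.31, 10.47 and 10.50 in wt/wt iMEFs. In MEFs it read 9.30, 9.47, 9.80, 9.90 and 10.07 (fl/fl), against 9.43, 9.49, 9.58, 9.69 and 9.54 (wt/wt). Its late arrays lay above its early arrays in all 4 lines, so it was high late with or without the floxed allele. Nfkbie, which encodes IκBε, read 9.10, 9.14, 9.59, 9.50 and 8.56 in fl/fl iMEFs, against 8.30, 8.33, 8.52, 8.71 and 8.53 in wt/wt iMEFs. In MEFs it read 7.64, 7.76, 8.08, 7.90 and 8.14 (fl/fl), against 7.79, 7.77, 7.68, 7.56 and 7.56 (wt/wt). The fl/fl iMEFs were thus high for Nfkbie from 0 h on and close to the control at 96 h, while the genotypes of the MEFs parted after 24 h.

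Bcl3, whose protein binds p50 and p52 dimers in the nucleus, read 10.52, 10.22, 10.80, 11.27 and 10.66 in fl/fl iMEFs, against 10.90, 10.87, 11.01, 11.21 and 11.22 in wt/wt iMEFs. In MEFs it read 9.66, 10.28, 10.43, 10.26 and 10.62 (fl/fl), against 10.14, 10.64, 10.39, 10.05 and 9.74 (wt/wt). The primary genotypes crossed between 24 and 48 h, with fl/fl low at the start and high at the end. Tnfaip3, whose product A20 removes activating ubiquitin chains upstream of IKK, read 7.38, 7.54, 7.76, 7.49 and 7.48 in fl/fl iMEFs, against 7.26, 7.50, 7.67, 7.78 and 7.59 in wt/wt iMEFs. In MEFs it read 7.01, 7.07, 7.59, 7.60 and 7.34 (fl/fl), against 7.14, 7.25, 7.27, 7.20 and 7.29 (wt/wt). The range over all 20 arrays was narrow for Tnfaip3, and the late fl/fl MEF arrays stood above both early ones.

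**Figure D1:**
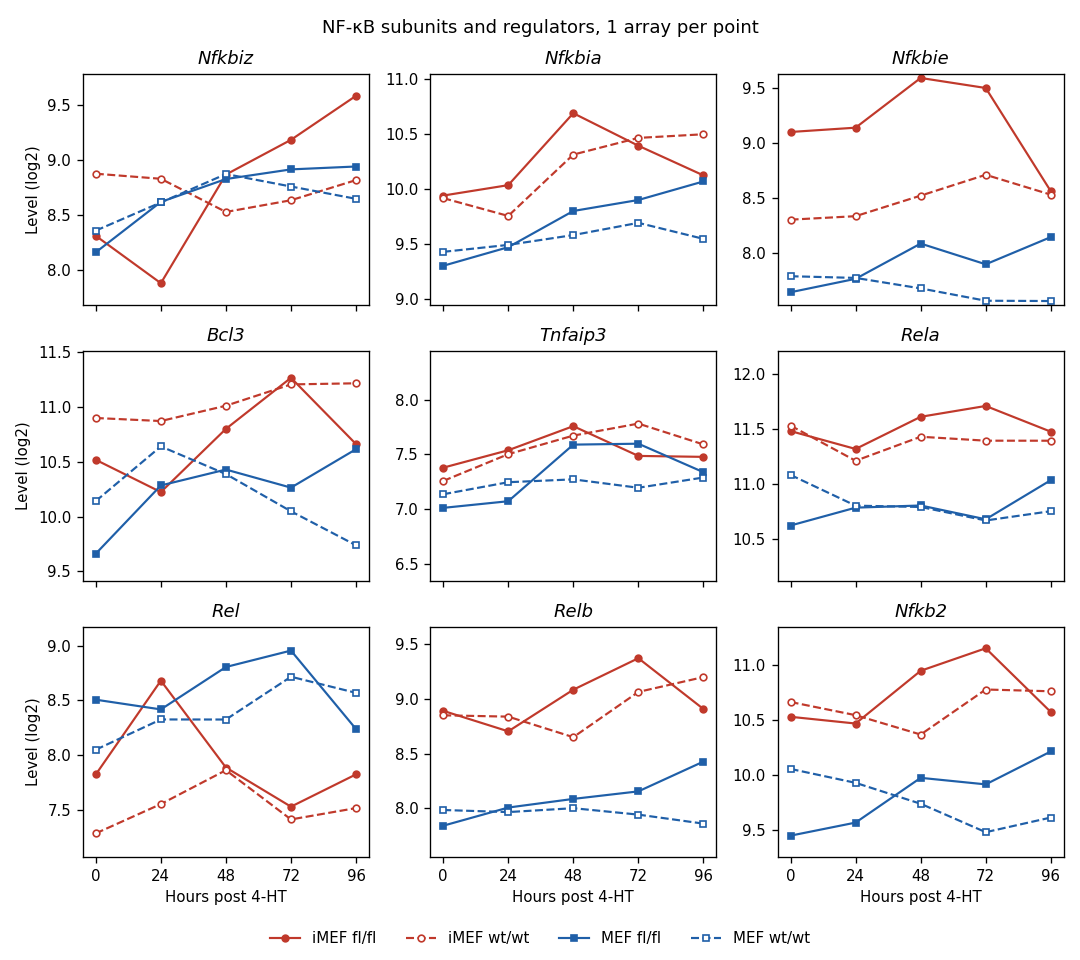
Log2 level (vertical axes, the same span in each panel) of the 9 measured genes against hours pHT in fl/fl and wt/wt iMEFs and fl/fl and wt/wt MEFs, 1 array per point and no error bars. Nfkbiz reaches 9.59 in fl/fl iMEFs at 96 h, while Nfkbie, Nfkb2, Rela and Relb keep all iMEF arrays above all MEF arrays.

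Among the subunits, Rela, which encodes the transactivating subunit p65, varied little between times (SD 0.116 to 0.159 within a line). It read 11.48, 11.32, 11.61, 11.71 and 11.48 in fl/fl iMEFs, against 11.53, 11.21, 11.43, 11.39 and 11.39 in wt/wt iMEFs, and 10.62, 10.78, 10.80, 10.68 and 11.03 in fl/fl MEFs, against 11.08, 10.80, 10.79, 10.67 and 10.75 in wt/wt MEFs. Every iMEF array was above every MEF array. Relb, the subunit of the slower route, read 8.89, 8.70, 9.08, 9.37 and 8.91 in fl/fl iMEFs, against 8.85, 8.84, 8.65, 9.06 and 9.20 in wt/wt iMEFs, and 7.84, 8.01, 8.09, 8.16 and 8.43 in fl/fl MEFs, against 7.99, 7.97, 8.003, 7.94 and 7.86 in wt/wt MEFs. Here too the cell types did not overlap, and fl/fl MEFs were higher at each next time while wt/wt MEFs were lowest at 96 h.

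Nfkb2, which encodes p100 and p52, read 10.53, 10.47, 10.95, 11.16 and 10.57 in fl/fl iMEFs, against 10.67, 10.55, 10.37, 10.78 and 10.76 in wt/wt iMEFs. In MEFs it read 9.45, 9.57, 9.97, 9.91 and 10.2 (fl/fl), against 10.06, 9.93, 9.74, 9.48 and 9.61 (wt/wt). The 2 primary lines ran in opposite directions: all late arrays were above the early ones in fl/fl MEFs and all were below in wt/wt MEFs. Rel, which encodes c-Rel, a subunit best known from lymphocytes, read 7.82, 8.68, 7.89, 7.53 and 7.82 in fl/fl iMEFs, against 7.29, 7.55, 7.86, 7.41 and 7.52 in wt/wt iMEFs. In MEFs it read 8.51, 8.42, 8.80, 8.95 and 8.24 (fl/fl), against 8.05, 8.33, 8.32, 8.72 and 8.57 (wt/wt). The highest iMEF value of Rel came from a single array, fl/fl at 24 h, and no line separated its late from its early arrays.

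Counted by line, all late arrays lay above all early ones for 5 of the 9 genes in fl/fl iMEFs, where 13.6% of all genes did so, and for 4 of 9 in wt/wt iMEFs (15.7% of all genes). The counts were 6 of 9 in fl/fl MEFs (20.2%) and 2 of 9 in wt/wt MEFs (17.1%). The reverse, with all late arrays below, held for 0 genes in fl/fl iMEFs (20.8% of all genes), 1 in wt/wt iMEFs (13.1%), 0 in fl/fl MEFs (17%) and 3 in wt/wt MEFs (23.7%). The 3 were Nfkbie, Nfkb2 and Rela, and the 1 was Nfkbiz.

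The late effect is the fl/fl minus wt/wt difference at 48 to 96 h minus the same difference at 0 and 24 h. In iMEFs, the contrast behind the choice of genes, it was 1.31 ± 0.19 (SE) for Nfkbiz, or 2.49-fold. The next highest of the 9 was Nfkb2. It read 0.36 ± 0.23, Bcl3 0.28 ± 0.26, Relb 0.20 ± 0.23 and Rela 0.16 ± 0.18, whereas Nfkbie had -0.17 ± 0.26, Nfkbia -0.18 ± 0.22, Tnfaip3 -0.19 ± 0.17 and Rel -0.68 ± 0.26. Their median was 0.16 with 5 of 9 positive, and the median of all genes was -0.04 with 46.4% positive. With each array scaled to its median the median of all genes became 0.14, and Nfkbie then lay just above 0 and Nfkbia just below it. With quantile scaling both turned positive (0.05 and 0.02), and Tnfaip3 and Rel stayed negative under either scaling. Of all genes 34 (0.223%) passed the limma test with Benjamini-Hochberg adjustment in this contrast, a count given as background only. The value for Nfkbiz ranged from 1.12 to 1.51 when single arrays were left out, and was 0.74 when 24 h was counted as late.

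In MEFs, whose arrays the choice did not use, the late effect was positive for 8 of the 9 genes, and none of these passed the test. Nfkb2 had 0.91 ± 0.23 (1.88-fold, adjusted p = 0.636, limma) and Bcl3 0.80 ± 0.26 (1.74-fold, adjusted p = 0.699). They were followed by Nfkbie with 0.52 ± 0.26, Tnfaip3 with 0.40 ± 0.17, Nfkbia with 0.39 ± 0.22, Rela with 0.34 ± 0.18 and Relb with 0.34 ± 0.23. Nfkbiz itself had 0.23 ± 0.19 (1.17-fold, adjusted p = 0.746), and Rel, the negative one, -0.14 ± 0.26. By limma 0 of 15272 genes (0%) passed here, so the count of 0 among the 9 is that of all genes. At an unadjusted p under 0.05 there were 3 of the 9, Nfkb2, Bcl3 and Tnfaip3, and 6.89% of all genes. The median of the 9 was 0.39, against 0.06 for all genes, of which 59.2% were positive. The sign for Rel turned to 0.09 without 96 h. Leaving out the 48 h array of fl/fl or of wt/wt MEFs brought the count over all genes to 81, and leaving out the 24 h array of either brought it to 1, with none of the 9 genes past the threshold (0) in any of these fits.

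**Figure D2:**
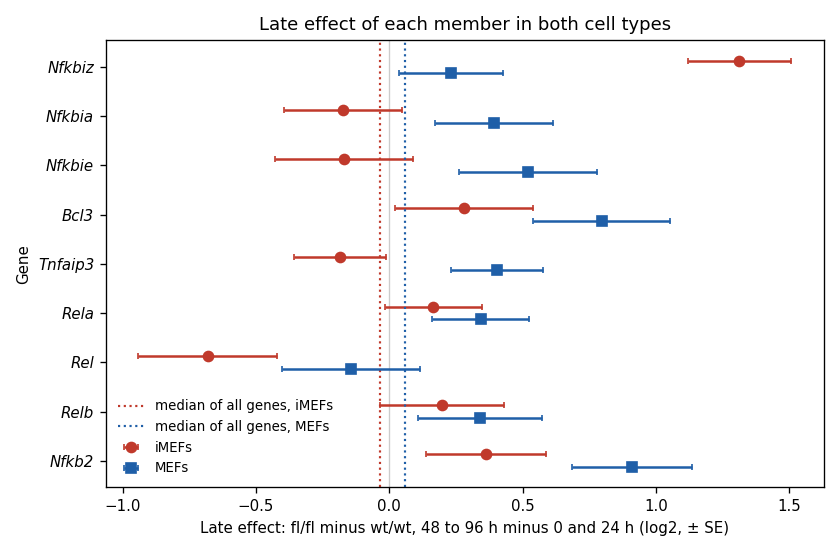
Late effect of each gene (log2, fl/fl minus wt/wt at 48 to 96 h minus the same at 0 and 24 h) in iMEFs and MEFs, with bars of ± 1 SE from the fit over all 20 arrays and dotted lines at the median of all genes. Nfkbiz lies at 1.31 in iMEFs and 0.23 in MEFs, and Nfkb2 and Bcl3 are furthest to the right in MEFs at 0.91 and 0.80.

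Read time by time against 0 h, the fl/fl minus wt/wt difference of Nfkbiz in iMEFs was -0.39 at 24 h, 0.91 at 48 h, 1.12 at 72 h and 1.34 at 96 h. The difference before subtraction was -0.57 at 0 h and 0.77 at 96 h, so the low start of the fl/fl line is part of the larger figure. In MEFs the same series was 0.20, 0.15, 0.35 and 0.49. For Nfkb2 in MEFs it was 0.25, 0.85, 1.04 and 1.21, and for Bcl3 in MEFs 0.12, 0.52, 0.70 and 1.36. At 48 h all 9 genes were positive in MEFs, at 72 and 96 h 8 were, with Rel the exception, and at 24 h 7 were. Between 56.9% and 61.1% of all genes were positive at these times. Before subtraction the MEF difference at 0 h was negative for every gene but Rel (0.46), with -0.61 for Nfkb2, -0.48 for Bcl3 and -0.46 for Rela. At 48 h it was 0.24 for Nfkb2, 0.04 for Bcl3, 0.01 for Rela and -0.05 for Nfkbiz. The low start of the fl/fl MEFs is thus part of these figures too. In iMEFs 5, 7, 5 and 2 of the 9 were positive from 24 to 96 h, and between 41.3% and 50.1% of all genes. These series share their 0 h arrays, so the times are not separate evidence.

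**Figure D3:**
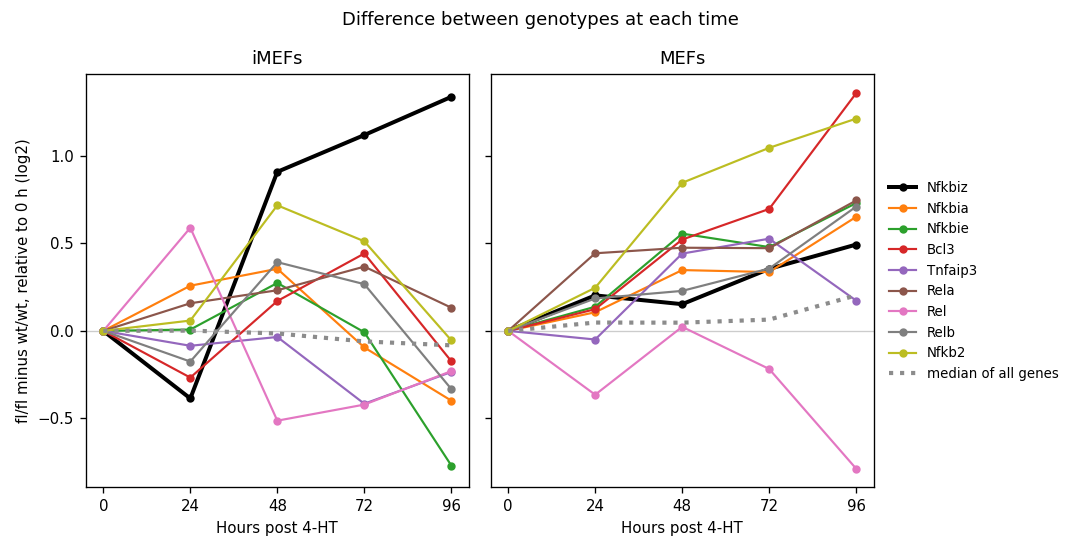
Difference between fl/fl and wt/wt relative to 0 h (log2) against hours pHT, in iMEFs (left) and MEFs (right), 1 line per gene and a dotted line for the median of all genes, with no error bars because each point rests on single arrays. In iMEFs Nfkbiz lies at 0.91 at 48 h, with Nfkb2 next at 0.72, and reaches 1.34 at 96 h, while in MEFs Nfkb2 (1.21) and Bcl3 (1.36) are highest at 96 h.

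Nfkbiz was higher late in primary cells of both genotypes, where time in culture and time since 4-HT cannot be told apart. Over both MEF lines Nfkbiz rose by 0.39 ± 0.10 (1.31-fold) at 48 to 96 h relative to 0 and 24 h, and this passed the test (adjusted p = 0.0186, limma). Scatter of the mean of both lines between times does not enter this test. Nfkbiz was the 1 of 9 genes called, or 11.1%, against 7.48% of all genes called higher and 9.3% called lower. Nfkbia had 0.34 ± 0.11 (adjusted p = 0.0578), Tnfaip3 0.26 ± 0.09 (0.0621) and Rel 0.28 ± 0.13 (0.189), all by the same limma fit. The remaining 5, Relb, Nfkbie, Nfkb2, Bcl3 and Rela, lay between -0.03 and 0.13. For Nfkb2 the small mean of 0.07 joins opposite courses, 0.53 in fl/fl MEFs and -0.38 in wt/wt MEFs. The call for Nfkbiz did not hold without 72 h (0.39, adjusted p = 0.125) or with 24 h counted as late (0.52, adjusted p = 0.385). It was also lost without the fl/fl MEF array at 0 h (0.34, adjusted p = 0.152), 24 h (0.44, 0.0835) or 72 h (0.38, 0.0682), or the wt/wt MEF array at 0 h (0.44, 0.0835), 24 h (0.34, 0.152) or 72 h (0.40, 0.0543). Other settings added calls: 4 of the 9 were called higher without 96 h (44.4%, against 12.0% of all genes), where Nfkbia, Rel and Tnfaip3 joined, and 3 of 9 without the fl/fl MEF array at 96 h (33.3%, against 13.3%). With quantile scaling, without 48 h or with the MEFs fitted alone there were 2 of 9, Nfkbia being the second.

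Before the late times, the immortalized cells held more RNA of several of these genes than the primary ones. At 0 and 24 h, with the 4 line means compared as 2 iMEF against 2 MEF lines, Nfkbie was higher by 0.98 ± 0.28 (1.97-fold, adjusted p = 0.0449), Relb by 0.87 ± 0.17 (1.83-fold, 0.0165) and Nfkb2 by 0.80 ± 0.22 (1.75-fold, 0.0387) in iMEFs, all by limma. These are 3 of 9 genes, or 33.3%, against 8.45% of all genes called higher and 15.9% called lower. Rela had 0.56 ± 0.18 (adjusted p = 0.0623), Nfkbia 0.49 ± 0.17 (0.0820), Bcl3 0.45 ± 0.25 (0.210) and Tnfaip3 0.30 ± 0.17 (0.224), none past the threshold. Nfkbiz differed little, with 0.04 ± 0.27 (adjusted p = 0.921), because its 2 iMEF lines lay on either side of the MEF lines. Rel was the 1 gene on the other side, with -0.49 ± 0.29 (adjusted p = 0.238).

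Over all 5 times the 10 iMEF arrays lay above the 10 MEF arrays for Nfkbie, Nfkb2, Rela and Relb, 4 of the 9, and for 11% of all genes. For Nfkb2 the lowest, median and highest levels were 10.4, 10.6 and 11.2 in iMEFs, against 9.45, 9.83 and 10.2 in MEFs, and for Relb 8.65, 8.90 and 9.37 in iMEFs, against 7.84, 7.99 and 8.43 in MEFs. Array scaling bears on this comparison: the median over the genes kept was 7.96 to 8.16 on iMEF arrays and 8.18 to 8.34 on MEF arrays. With median scaling 5 of the 9 genes were called higher and the median of all genes was 0.33, against 0.10 as deposited. Of all genes called, 34.7% were higher and 65.3% lower as deposited, 60.1% and 39.9% with median scaling, and 48.7% and 51.3% with quantile scaling, again with 5 of the 9 called. Without the fl/fl MEF line, when the lone MEF line is assumed to vary like the others, 0 of the 9 were called (Nfkbie 0.94, adjusted p = 0.126, Relb 0.84, 0.196, and Nfkb2 0.56, 0.512). Without the wt/wt MEF line Nfkbie had 1.02 (adjusted p = 0.0563) and Relb 0.90 (0.107), and Nfkb2 remained past the threshold at 1.05. More were called in other settings: 5 of 9 without the fl/fl iMEF line (25.2% of all genes were called higher) and 5 of 9 without the wt/wt iMEF line (12.7%), 6 of 9 at 0 h only (10.6%) and 7 of 9 over all 5 times (35.1%).

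**Figure D4:**
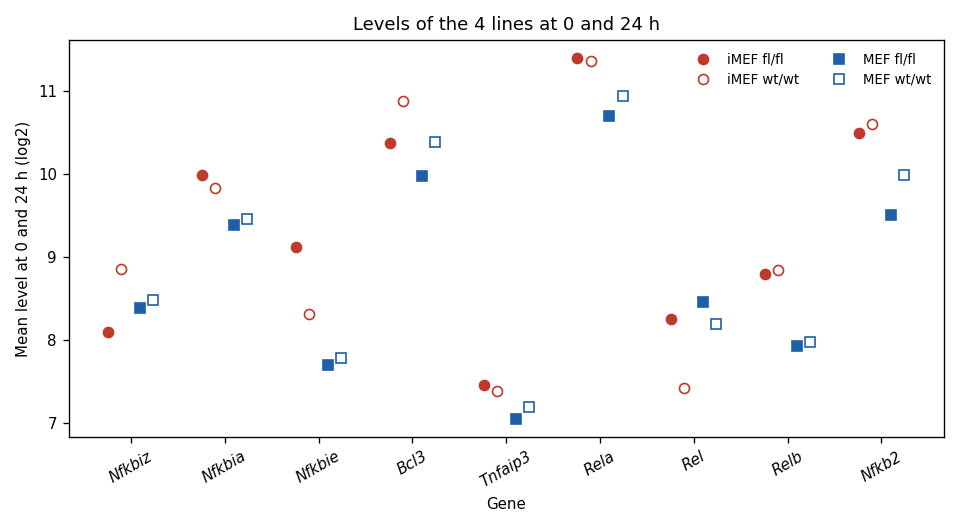
Mean log2 level at 0 and 24 h of each gene in fl/fl and wt/wt iMEFs and fl/fl and wt/wt MEFs, 1 point per line (mean of 2 arrays, no error bars). Both iMEF lines lie above both MEF lines for Nfkbia, Nfkbie, Tnfaip3, Rela, Relb and Nfkb2, while for Nfkbiz fl/fl iMEFs are lowest at 8.09 and wt/wt iMEFs highest at 8.85.

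Downstream of the factors, 30 genes known as inducible NF-κB targets were set beside the 9, and 27 of them passed the filter. From early to late times in MEFs 16 of the 27 were called higher and 1 lower, with a median of 0.40. The share called higher was 59.3%, beside 7.48% of all genes. The list was chosen with earlier results of these data known, so this share is a description. Here too scatter of the mean of both lines between times does not enter the test. Saa3, an acute-phase apolipoprotein, rose by 2.79 ± 0.29 (6.94-fold, adjusted p = 7.42e-05, limma). It read 7.12, 8.78, 10.44, 12.15 and 12.55 in fl/fl MEFs, against 7.31, 9.79, 10.49, 10.71 and 9.93 in wt/wt MEFs. Both lines were thus higher at each next time through 72 h, and at 96 h the fl/fl line was higher still and the control lower. Lcn2, the iron-scavenger lipocalin that depends on IκBζ, rose by 2.24 ± 0.21 (4.71-fold, adjusted p = 3.72e-05). It read 6.80, 7.97, 9.21, 10.84 and 11.19 in fl/fl MEFs, against 6.53, 8.96, 8.67, 9.21 and 9.67 in wt/wt MEFs, and 6.66, 6.41, 7.54, 8.74 and 8.61 in fl/fl iMEFs, against 6.38, 6.64, 6.93, 7.39 and 7.26 in wt/wt iMEFs. On average all 4 lines were higher late for Lcn2, the fl/fl line by more than its control in each cell type.

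Mmp3 (a matrix protease, 1.49 ± 0.13) and the chemokines Ccl5 (1.12 ± 0.12), Ccl7 (1.05 ± 0.11), Ccl2, Ccl20, Cxcl10 (0.95 ± 0.19), Cxcl5 (0.91 ± 0.10) and Cxcl1 (0.50 ± 0.14) rose too. So did the adhesion genes Icam1 (0.81 ± 0.13) and Vcam1 (0.54 ± 0.11), the apoptosis inhibitor Cflar (0.56 ± 0.17), the antioxidant enzyme gene Sod2 (0.40 ± 0.09), and Lif and Tnfaip2, with adjusted p between 2.29e-05 for Mmp3 and 0.0475 for Cflar. The 1 called lower was the protease gene Mmp9 (-0.34 ± 0.08). The late effect of fl/fl over wt/wt was positive for 20 of the 27 in MEFs and 18 of the 27 in iMEFs, with medians of 0.33 and 0.14. None of the 27 passed in MEFs (0): Saa3 had 1.93 ± 0.58 (adjusted p = 0.699), Lcn2 1.60 ± 0.42 (0.695), Icam1 0.89 ± 0.26 (0.699) and Mmp3 0.87 ± 0.26 (0.699), by limma.

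Upstream, receptors were the group with most calls in MEFs: 5 of 12 were called higher at late times and 0 lower. They were Il1rap, the shared co-receptor of interleukin-1 and interleukin-33 (1.10 ± 0.13), Tlr3 (1.03 ± 0.15), Tlr2 (0.90 ± 0.10), Tlr4 (0.70 ± 0.21) and Cd40 (0.35 ± 0.11). Of 9 kinases and partners at the IKK complex 2 were called higher, the non-canonical kinase Ikbke (0.62 ± 0.10) and the scaffold Ikbkg (0.33 ± 0.08). Of 12 adaptors 2 were called higher, the ubiquitin ligases Traf6 (0.41 ± 0.10) and Birc3 (0.39 ± 0.10). Of 14 further inhibitors 2 were called higher, N4bp1 (0.48 ± 0.13) and the RNase gene Zc3h12a (0.36 ± 0.08). Among 6 ligands Tnf fell by 0.42 ± 0.11 on the log2 scale, and among 14 immediate early genes, which respond rapidly to serum and stress, Myc fell by 0.79 ± 0.09. The adjusted p-values of these genes ran from 0.000107 for Tlr2 to 0.0482 for Tlr4 (limma). The shares called higher were 41.7% of receptors, 22.2% at the IKK complex, 16.7% of adaptors and 14.3% of further inhibitors, beside the 7.48% of all genes. The shares called lower were 16.7% of ligands (Tnf alone) and 7.14% of immediate early genes (Myc alone), beside 9.3% of all genes. The mean level of the 8 ligands measured was low, at 6.32 to 6.58 in fl/fl MEFs and 6.31 to 6.54 in wt/wt MEFs. The 40th percentile was 6.16 to 6.42, and 3 of the 8 lay under it on every array of each MEF line. The lists of this paragraph too were chosen with earlier results known, so the shares are descriptions, and the same limit of the test holds.

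**Figure D5:**
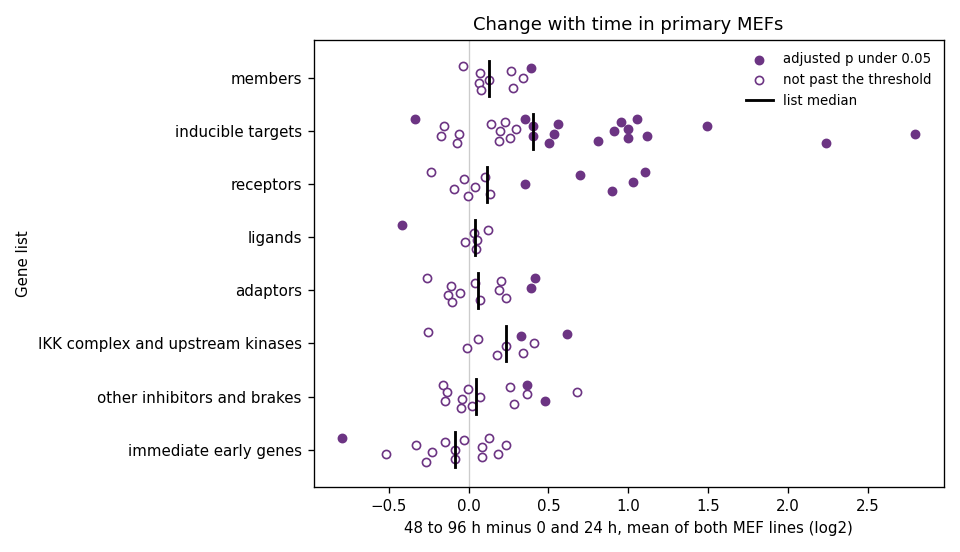
Change with time in primary MEFs (log2, 48 to 96 h minus 0 and 24 h, mean of both lines) for every gene kept of the 9 members and 7 pathway lists, with filled points for adjusted p under 0.05, open points for the rest and a bar at each list's median. The inducible targets reach furthest to the right (16 of 27 called higher, Saa3 at 2.79), and 1 of the 9 members, Nfkbiz, is called.

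The late effect of the immediate early genes was positive for all 14 in both cell types, beside 46.4% of all genes in iMEFs and 59.2% in MEFs. Its medians were 0.55 in iMEFs and 0.59 in MEFs, and 0 of the 14 passed in MEFs. In iMEFs the mean level was 9.11 early and 9.65 late in fl/fl, against 9.44 early and 9.40 late in wt/wt. In MEFs it was 8.91 early and 9.08 late in fl/fl, against 9.39 early and 8.97 late in wt/wt. The larger move was thus that of fl/fl in iMEFs and of the control in MEFs. Egr1 had 1.23 ± 0.39 in MEFs (adjusted p = 0.699, limma), the highest of the list. Between the cell types at 0 and 24 h, most of the targets called were lower in iMEFs. Of the 27 targets 12 were called lower (44.4%, against 15.9% of all genes) and 3 higher in iMEFs (11.1%, against 8.45%). Among those lower were Ccl7 at -2.21 ± 0.26 and Ccl2 at -2.17 ± 0.17. On the other side were Ccl5 at 2.15 ± 0.21, Pdgfb at 1.20 ± 0.17 and Tnfaip2 at 0.94 ± 0.25. Calls for receptors were split, with 3 of 12 called higher (Il17rc 1.35, Tnfrsf12a 1.08 and Tnfrsf1b 0.79) and 3 called lower (Il1rap -1.31, Tnfrsf11a -0.77 and Tlr4), or 25% each way. By sign alone 4 were positive and 8 negative. Saa3 and Mmp3 lay between 5.55 and 6.43 on all iMEF arrays, around or under the 40th percentile of 6.16 to 6.42, so no size is given for their differences, which were among the 12 called lower.

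Markers of other cells moved along with several of these comparisons. The fibroblast list of 10 genes was measured in all lines, but Lum lay under the 40th percentile on all iMEF arrays (4.65 to 5.41) and Dcn near it (6.30 to 7.24), while Col1a1 and Vim were at 12.0 or above everywhere. At 0 and 24 h all 10 had lower means in iMEFs and 5 were called lower (50%, against 15.9% of all genes), among them Thy1 (-2.73 ± 0.35) and Col3a1 (-1.81 ± 0.20). In the late effect of iMEFs 9 of the 10 were negative, Pdgfra most (-1.28 ± 0.23), and in that of MEFs 8 of 10 were positive. The mean level of 10 macrophage markers was 5.95 to 6.35 in fl/fl iMEFs, 6.11 to 6.38 in wt/wt iMEFs, 8.70 to 9.11 in fl/fl MEFs and 7.92 to 8.62 in wt/wt MEFs. In iMEFs 5 of the 10, with Lyz2 and Adgre1 among them, were under the 40th percentile on every array. At 0 and 24 h all 9 kept had lower means in iMEFs, and 8 were called lower (88.9%, against 15.9% of all genes). In MEFs the macrophage list had a late effect of 0.48 in the median with 7 of 9 positive, led by Cd68 at 1.07 ± 0.34 and Tyrobp at 0.92 ± 0.35, and 0 of 9 passed. It went with a mean level of 8.93 late and 8.83 early in fl/fl MEFs, against 8.24 late and 8.54 early in wt/wt MEFs. From early to late times in MEFs 0 of the 9 were called higher and Csf1r was called lower (-0.62 ± 0.14), the median being 0.02. Cd68 was also well above the 40th percentile in iMEFs, at 8.27 to 10.07 in fl/fl and 8.62 to 10.35 in wt/wt. There it rose by 1.38 ± 0.17 from early to late times, while 7 of the 9 were negative, so Cd68 did not run with the rest of the list. The part of these markers in the late effects and in the differences between cell types was not tested, and in bulk RNA fewer cells of a type cannot be told apart from less RNA per cell. Endothelial markers were under the 40th percentile on all arrays for 3 of 6 genes in every line, and 0 or 1 of 6 epithelial markers were.

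The targeted gene, Ubtf, did not mark the deletion on these arrays. Its levels from 0 to 96 h were 10.4, 10.6, 10.4, 10.2 and 10.0 in fl/fl iMEFs, against 10.4, 10.4, 10.3, 10.2 and 9.49 in wt/wt iMEFs, and 10.6 or 10.5 throughout in fl/fl MEFs, against 10.2 to 10.8 in wt/wt MEFs. Only internal exons were floxed and which exons the probe set reads is not given in the sources used here, so this level does not check the labels. Its late effect was 0.13 ± 0.18 in iMEFs and 0.36 ± 0.18 in MEFs (adjusted p = 0.718 in MEFs, limma).

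None of the 8 other members was among the 10 genes whose levels ran most like those of Nfkbiz. Nfkbiz itself varied most in fl/fl iMEFs, a line that the choice used (SD 0.68, against 0.15 to 0.32 within the other lines). The ranking covered 14379 genes over the 20 arrays, 5 from each line, and left out predicted genes, Rik genes and small RNA genes. Its highest Pearson correlations were those of Ino80d (a chromatin remodeller subunit, r = 0.83), Trim11 (0.80), Tbcel (0.80), C4b (0.77), Sh2d6 (0.76) and Grip1 (0.76). Tnfsf15, Nr1d1, Rwdd3 and Ttll3 followed at 0.75. Ino80d read 8.90, 8.86, 9.52, 9.90 and 10.17 in fl/fl iMEFs, against 9.13, 9.04, 9.18, 9.31 and 9.60 in wt/wt iMEFs. After each line's mean was subtracted, Ino80d (0.86) and Tbcel (0.86) were the 2 that stayed among the first 10, behind Lncpint and Hoxb7 at 0.90. Of the 8 other members Bcl3 came first (r = 0.43, rank 1151), then Nfkbia (0.33), Relb (0.30), Nfkb2 (0.29), Tnfaip3 (0.24), Rela (0.21) and Nfkbie (0.08), and Rel ran the other way (-0.29). After each line's mean was subtracted, Bcl3 had 0.56 (rank 1351) and Relb 0.54 (rank 1501). Nfkb2 then had 0.41, Nfkbia 0.37, Rela 0.30, Tnfaip3 0.21, Nfkbie -0.09 and Rel -0.39. Arrays of 1 line are not independent, so these values describe the arrays and carry no p.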

How the data were processed

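The authors deposited log2 values for every probe set, made by RMA-sketch in Affymetrix Power Tools version 1.14.4 (per the labels) over all 20 arrays. The methods state a Mouse Gene 2.0 ST array, but probe sets were named through an annotation for Mouse Gene 1.0 ST, whose identifiers they carry. Of 35556 probe sets 21789 carry 1 gene symbol, 1621 several and 12146 are not listed; identifiers of 21698 were found in RefSeq's mouse table. A gene was kept if it exceeded the 40th percentile of an array on at least 2 arrays.

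The members and all gene lists were chosen with earlier results of these data known. Differences were tested in R 4.3.3 with limma 3.58.1 (lmFit, eBayes, two-sided, Benjamini-Hochberg over 15272 genes, threshold 0.05). Each line had its own level in the model, each cell type its own 5 times, and each cell type its own genotype effect at late times (6 residual degrees of freedom, 4.78 added by the empirical Bayes prior). The cell types at 0 and 24 h were compared on the 4 line means (2 residual degrees of freedom), since times of 1 line are no replicates of a cell type. The number of arrays limits the precision: the median SE was 0.207 for the late effect and 0.192 between cell types.

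Named genes were all members, the list genes past the threshold of a tested comparison or among the 4 largest in it, and the 10 genes most like Nfkbiz; the array values of Ubtf and of marker genes were chosen after they were seen. Several list genes were not kept: Chuk, Ripk1, Irak4, Traf3, Il1r1 and Tnfsf12 were not analysed here, and 10 more lay below the filter. Tested on simulated data with 15272 genes, limma recovered 71 of 100 genes changed by 1 and 98 of 100 changed by 2 in the late effect of MEFs (7 false calls). It recovered 99 and 100 in the change with time (13), and 74 and 100 between cell types (22). The simulated noise was normal, independent between arrays or line means, and had the spread of the fit itself. These counts hold for such noise and do not measure recovery on the real arrays. Alternatives were array scaling, the filter, all probe sets of a gene averaged, limma's trend and robust settings, times left out or moved, and each cell type alone. Single arrays or lines were left out as well, which was decided after the data had been seen. Figures were drawn in Python 3.11.15 with matplotlib 3.10.9.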

Additional observations from a re-analysis of the deposited data

Results flagged for a closer look

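Tnfaip3 was flagged because its genotype difference relative to 0 h had opposite signs in the cell types at every late time. Its level itself was higher late than early on average in all 4 lines. The rise was 0.115 in fl/fl iMEFs, 0.301 in wt/wt iMEFs, 0.466 in fl/fl MEFs and 0.061 in wt/wt MEFs. Its fl/fl minus wt/wt difference relative to 0 h, averaged over 48, 72 and 96 h, was -0.23 in iMEFs and 0.38 in MEFs, with every late time negative in iMEFs (-0.03, -0.42 and -0.23) and every late time positive in MEFs (0.44, 0.53 and 0.17). In the late effect of iMEFs, which is taken against 0 and 24 h, Tnfaip3 had -0.19 as deposited, -0.01 with median scaling and 0.115 in the fl/fl line alone. The difference between the cell types was not tested, and all these values share the 0 h arrays.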

How the results depend on the processing

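With 1 array per line and time, technical and biological spread cannot be told apart, and the single line of each genotype and cell type limits every comparison. The labels give no replicate numbers, and the fits of the late effect already match fl/fl and wt/wt arrays by time, so leaving out either array of a time gives the same late effect. The number of genes past the threshold in the late effect of iMEFs (34) became 99 with median scaling, 102 with quantile scaling, 92 with trend and robust settings, 14 with iMEFs fitted alone and 1663 without 96 h. It became 0 without 24 h, with 24 h counted as late and without 72 h (limma, with 802, 143 and 1739 genes at an unadjusted p under 0.05). In the late effect of MEFs (0) it was 11 without 48 h. In the change with time in MEFs (2563) it was 1321 without 24 h, 535 with 24 h counted as late, 985 without 72 h and 3871 without 96 h, and between cell types (3719) it was 10131 with all 5 times. Leaving out single arrays gave 0 to 998 in the late effect of iMEFs, 0 to 81 in that of MEFs and 993 to 3785 in the change with time, and leaving out single lines gave 1460 to 8248 between cell types. Among the tested values the sign turned for 3: Bcl3 with time in MEFs without 48 h (-0.0156), Rela with time in MEFs without 72 h (0.0228) and Rel in the late effect of MEFs without 96 h (0.0850). With single arrays left out they ranged from -0.0596 to 0.190, -0.146 to 0.0759 and -0.327 to 0.0850, and Nfkbiz between cell types ranged from -0.34 to 0.42 with single lines left out. In the late effect of iMEFs, which was not tested, values negative as deposited turned positive in 4 of 13 settings for Nfkbia (up to 0.416, in the fl/fl line alone), 4 of 13 for Nfkbie (up to 0.129, without 96 h) and 1 of 13 for Tnfaip3 (0.115, in the fl/fl line alone). Nfkbie lost its call between cell types with the filter at the 60th percentile (0.98, adjusted p = 0.0523). Of the values for single genes under the settings planned at the start, 371 kept their direction and side of the threshold or, untested, moved by less than their error, 19 gained and 3 lost a call, 9 untested values moved by more than their error and 3 tested values turned. The cause of these changes was not tested.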
